A study of Mus musculus with 16 samples.

Results

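Genes of prostaglandin synthesis, transport and breakdown were followed in mouse hematopoietic stem cells exposed to dmPGE2, a dimethyl analog of prostaglandin E2 (PGE2) that resists enzymatic inactivation. The 10 genes were chosen by symbol: the cyclooxygenases Ptgs1 and Ptgs2, the PGE2 synthases Ptges, Ptges2 and Ptges3, the prostaglandin D2 synthase Hpgds, the inactivating enzymes Hpgd and Ptgr1, and the carriers Slco2a1 and Abcc4. All 10 were among the 14829 genes of the table, and all 10 were tested in every comparison. Bone marrow of 4 young and 4 old mice was divided, and each mouse gave 1 library of cells held with vehicle and 1 of cells held with dmPGE2, for 1 h at 37 °C, before the stem cells were sorted. The 4 groups of 4 libraries were therefore young vehicle, young dmPGE2, old vehicle and old dmPGE2. The labels do not give the strain, the ages in months, the dose or the sorting gate. Since marrow was exposed before sorting, other marrow cells were present during the treatment in all 4 groups.

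Cyclooxygenases turn arachidonic acid, released from membranes by phospholipases, into the unstable intermediate PGH2, which terminal synthases convert to PGE2, PGD2 and other prostanoids. Cyclooxygenase 1, encoded by Ptgs1, is made steadily in many cells, while cyclooxygenase 2, encoded by Ptgs2, is the inducible form and a classic early response gene. PGE2 leaves cells partly through the pump Abcc4, is taken up through the carrier Slco2a1, and is inactivated by the dehydrogenase Hpgd and then by reductases such as Ptgr1. PGE2 is known as a signal that supports hematopoietic stem cells.

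The libraries held 12960704 to 19226963 counts. Levels are given as CPM, the counts scaled to library size with TMM factors, and errors of group means are SD over the 4 mice. The sample descriptions name 2 consecutive dates, called date 1 (mice 477 and 478, young, and 479 and 480, old) and date 2 (mice 483 and 484, young, and 485 and 486, old), without naming the step done on them. The 15 stem cell markers were all in the table, with summed levels of 4233 to 6952 CPM in every library. The sum was lowest in young libraries of date 2 (4233 to 4519 CPM). Kit, the stem cell factor receptor, reached at least 1089 CPM in each library. Members of this list differed in direction between ages, by the means of each date. Cd34 (448 to 465 CPM in young, 162 to 224 in old) and Flt3 (49.7 to 69.1 and 13.8 to 29.6) were lower in old mice. Procr (91.3 to 148 and 206 to 252) was higher. The part of the makeup of the sorted cells in the age differences was not tested. Markers of mature cells differed between the dates, and some lists also differed between ages on date 2. The 9 measured mast cell and basophil markers summed to 13.6 to 28.9 CPM on date 1 and to 530 to 4438 CPM on date 2. The 5 eosinophil markers summed to 6.25 to 23.3 CPM on date 1 and to 698 to 4746 CPM on date 2, and the 10 neutrophil markers to 4.11 to 9.54 CPM and 742 to 1440 CPM. Within date 2, the neutrophil markers summed to 965 to 1440 CPM in young and 742 to 798 CPM in old libraries. The 6 myeloid progenitor markers summed there to 2193 to 3235 and 1381 to 1493 CPM. The 8 measured erythroid markers summed to 3335 to 3733 and 2053 to 2195 CPM. For the 10 monocyte and macrophage markers it was 688 to 908 and 356 to 651 CPM. On date 1 the myeloid progenitor markers were higher in old (261 to 306 CPM) than in young libraries (120 to 160). Between ages, the 11 megakaryocyte and platelet markers summed to 618 to 825 CPM in young and 1285 to 1782 CPM in old libraries. By the means of each date, that gap lay mainly in Vwf (122 to 192 CPM in young, 563 to 686 in old) and Itgb3 (109 to 119 and 368 to 448). Itga2b rose less (205 to 235 and 289 to 320), and Pf4 (86.1 to 101 and 93.2 to 104) and Gp5 (42.4 to 45.8 and 40.3 to 45.8) differed little. In such bulk libraries, fewer cells of a type and less RNA per cell cannot be told apart.

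The genes spanned a wide range of levels. Per kilobase of exon, young vehicle cells had most Ptges3 (93.8 ± 11.9 CPM per kb, n = 4), followed by Ptgs1 (68.2 ± 7.83), Ptges2 (20.1 ± 3.66) and Abcc4 (11.5 ± 1.43). Below these lay Hpgd at 10.1 ± 5.62, Ptgr1 at 8.71 ± 1.46, Ptgs2 at 4.87 ± 5.52, Hpgds at 2.499 ± 0.948 and Ptges at 2.46 ± 1.40 CPM per kb, and Slco2a1 was lowest at 0.344 ± 0.0452 CPM per kb. Over the 4 mice, the first 4 genes did not overlap each other, whereas neighbours in the order from Abcc4 down to Ptges overlapped. Slco2a1 stood below every other gene but Ptgs2 without overlap, and the Ptgs2 levels of mice 477 and 478 fell into or below its range. In old cells after dmPGE2, Ptgs2 held the third place with 47.3 ± 9.27 CPM per kb, behind Ptges3 at 82.3 ± 11.8 and Ptgs1 at 65.9 ± 9.35 CPM per kb.

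**Figure D1:**
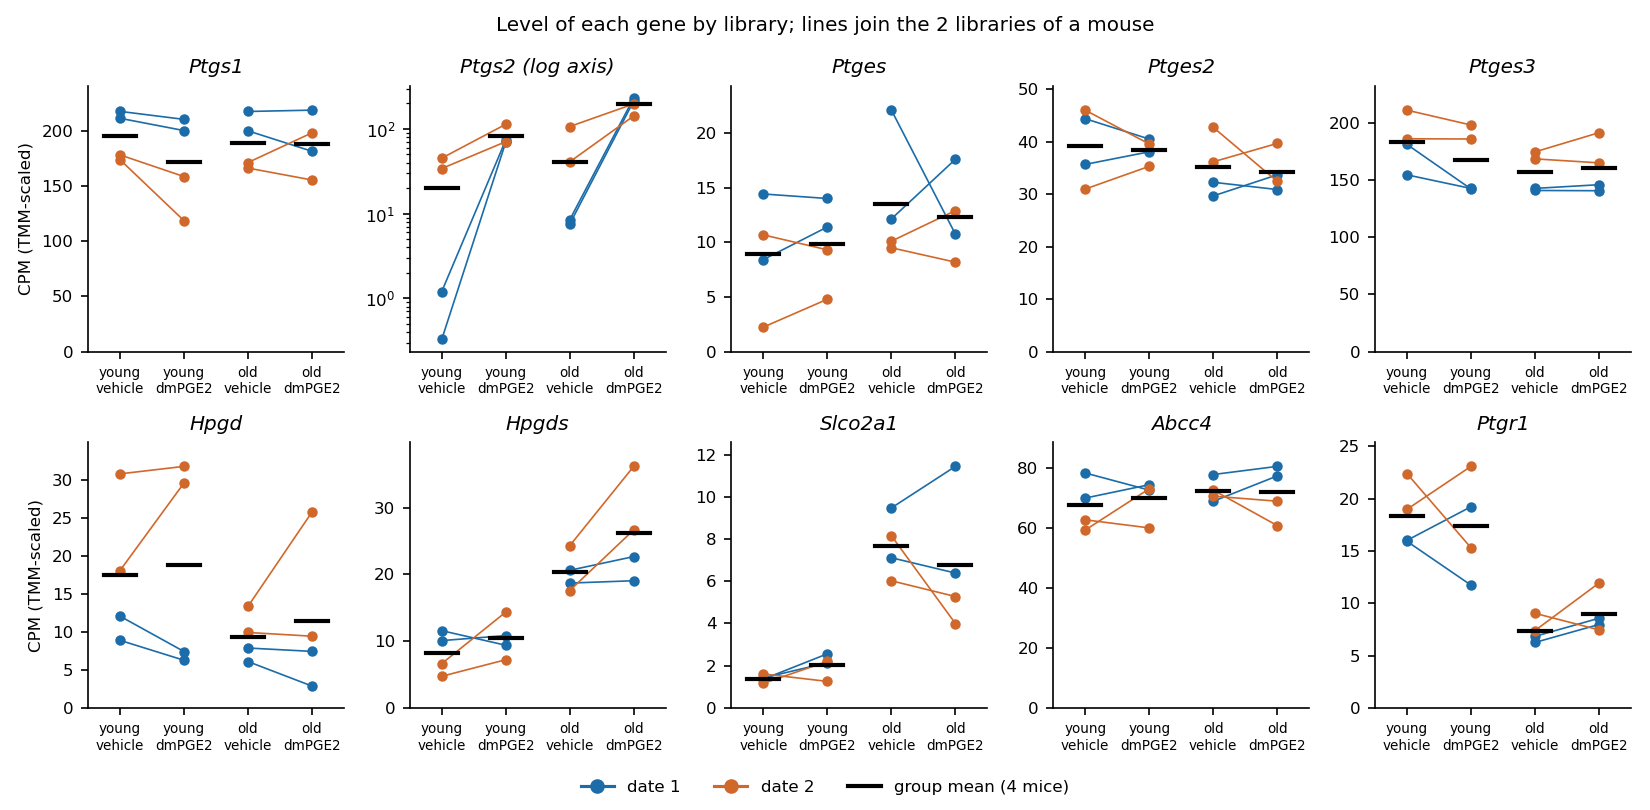
Level in CPM (vertical axis; log axis for Ptgs2) of each of the 10 genes in the 4 groups, with 1 point per library, lines joining the vehicle and dmPGE2 libraries of a mouse, colors for the date and black bars for group means. Ptgs2 is higher after dmPGE2 in 8 of 8 mice, and Hpgds and Slco2a1 are higher and Ptgr1 lower in old vehicle than in young vehicle libraries without overlap.

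Ptgs2 (mm10 chr1:150100124-150108012, plus strand) was the gene with the widest range. Its level in vehicle libraries of young mice was 1.20 CPM in mouse 477, 0.327 in 478, 45.2 in 483 and 34.1 in 484. After dmPGE2 the same mice had 73.7, 69.5, 113 and 70.7 CPM. In old mice, vehicle libraries held 7.52 CPM in mouse 479, 8.44 in 480, 107 in 485 and 40.8 in 486, and dmPGE2 libraries 214, 231, 197 and 142 CPM. Each of the 8 mice was higher after dmPGE2, and within each age the vehicle and dmPGE2 groups did not overlap. The vehicle libraries fell into low values on date 1 and higher values on date 2, while after dmPGE2 the date 2 libraries lay below those of date 1 in old mice and overlapped them in young mice. The 2 lowest values rested on few reads, 22 counts in mouse 477 (95% Poisson interval 13.8 to 33.3) and 6 counts in mouse 478 (2.20 to 13.1), intervals that cover counting error only.

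In the test over all mice, none of the 10 genes was called for dmPGE2 against vehicle by edgeR's quasi-likelihood test, against 0.61% of all genes. Of the 10, 2 had an unadjusted p under 0.05, DESeq2 called 1 and limma-voom 0. Ptgs2 had a log2 difference of 2.98 ± 0.91 (SE) with an edgeR adjusted p of 0.269, while DESeq2 called it at 3.48 with an adjusted p of 0.000528. With a term for each date, Ptgs2 was called on both, the only one of the 10 to be called on either. On date 1 it rose 51.2-fold (log2 5.68 ± 0.21, edgeR adjusted p = 8.59e-09), where 2.93% of all genes were called. The single mice of date 1 rose 61.5-fold, 213-fold, 28.4-fold and 27.4-fold. On date 2 it rose 2.40-fold (log2 1.26 ± 0.16, edgeR adjusted p = 0.00344), where 0.387% of all genes were called, and the mice rose 2.51-fold, 2.08-fold, 1.85-fold and 3.49-fold. The difference between the dates was itself called (log2 -4.41 ± 0.27, edgeR adjusted p = 1.68e-06), as for 1.08% of all genes. The dates were given separate terms because earlier results of these data showed responses that differed between them, so this is not an independent test. The pairing by mouse mattered on date 2, since without the mouse block the edgeR adjusted p was 0.145.

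The dates differed in the starting level. Among vehicle libraries Ptgs2 was 17.5-fold higher on date 2 (log2 4.13 ± 0.55, edgeR adjusted p = 0.00134), averaging 56.7 CPM against 4.37 CPM, and after dmPGE2 the means were 131 CPM on date 2 and 147 CPM on date 1. The mature cell markers given above moved with the date in the same libraries, and their part in the level of Ptgs2 was not tested. Of the 10 genes, 4 were called between the dates in vehicle libraries, against 11% of all genes. Besides Ptgs2 these were Hpgd (1.99-fold higher on date 2, edgeR adjusted p = 0.0238), Ptges3 (1.20-fold higher, 0.0414) and Ptgs1 (1.22-fold lower, 0.0119). The last 3 calls were fragile: Ptgs1 had an adjusted p of 0.0552 without mouse 480, Hpgd of 0.0601 to 0.0840 without any 1 of mice 477, 478, 480, 483 and 486, and Ptges3 of 0.0515 to 0.144 without any 1 mouse other than 478.

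The promoters of the cyclooxygenase pair are shown because 1 of them moved with dmPGE2 and the other did not pass the test. The 250 bases before the RefSeq start of each gene (GRCm38.p6, plus strand), chr1:150099781-150100030 for Ptgs2 and chr2:36230176-36230425 for Ptgs1, are followed by a 30-base stretch just inside the Ptgs2 transcript, chr1:150100034-150100063. Capitals mark TTGCGCAA, the palindromic C/EBP motif, and CGTCACGTG, in which the short cAMP response site CGTCA overlaps the E-box CACGTG.
Ptgs2 upstream: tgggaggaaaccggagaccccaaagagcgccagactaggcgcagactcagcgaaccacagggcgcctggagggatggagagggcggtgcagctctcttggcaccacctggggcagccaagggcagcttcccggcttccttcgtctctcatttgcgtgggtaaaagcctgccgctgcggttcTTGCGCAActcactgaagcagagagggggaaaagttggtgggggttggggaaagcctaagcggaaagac
Ptgs1 upstream: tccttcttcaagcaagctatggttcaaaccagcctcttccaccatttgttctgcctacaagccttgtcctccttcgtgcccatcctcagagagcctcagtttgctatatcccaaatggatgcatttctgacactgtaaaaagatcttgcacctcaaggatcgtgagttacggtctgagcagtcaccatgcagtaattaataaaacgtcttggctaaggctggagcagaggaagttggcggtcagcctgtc
Ptgs2 start: gtcaccactaCGTCACGTGgagtccgcttt

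Both motifs marked in Ptgs2 occur in few promoter windows, and such shares depend on the length of the motif. On either strand, CGTCACGTG occurs in 0.451% and TTGCGCAA in 0.183% of the 32851 windows of 300 bases (250 before to 50 after a start), and among the 10 genes, all matched in RefSeq, only Ptgs2 has them. The shorter parts are common, CGTCA in 20.8% and CACGTG in 7.15% of windows. CGTCACGTG begins 13 bases after the RefSeq start of Ptgs2, and 80 bases before the start of the gene model in the table, which lies 93 bases further on. Of the other members, Ptges3 has CGTCA, Abcc4 and Ptges2 have CACGTG, and Hpgd and Slco2a1 have TATAAA, which 13.6% of windows hold. None of the 10 has the full cAMP response motif TGACGTCA (1.79% of windows) or the AP-1 motif TGANTCA (7.81%), and Ptgs1 has none of those searched. A match is a description of letters, not of a bound site.

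The transcripts of the pair also differ after the stop codon. ATTTA, the core of AU-rich elements that are known to shorten RNA life, occurs 14 times in the 2445 bases after the Ptgs2 stop codon and 0 times in the 921 bases of Ptgs1 (GENCODE M21). Of 13192 genes compared, whose median was 1, 2.18% had at least as many as Ptgs2. The other 8 genes had 0 to 4. These counts, and the share of genes, are not scaled to the length after the stop codon. Per kilobase of it, Ptgs2 had 5.73, Hpgd 4.77 and Ptges3 3.37, and the rest 0 to 1.83.

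Ptgs1 (chr2:36230426-36252271, plus strand) stayed within a narrow range. Its vehicle libraries held 218, 212, 174 and 178 CPM in young mice and 200.3, 218, 167 and 172 CPM in old mice, and its dmPGE2 libraries 211, 200.5, 119 and 159 CPM in young and 182, 219, 156 and 198 CPM in old mice, in the order of mouse number. All 4 groups overlapped, and 6 of 8 mice were lower after dmPGE2, with a log2 difference over all mice of -0.11 ± 0.06 (edgeR adjusted p = 0.512). Ptgs1 shares 148 exon bases with the annotated transcript Gm43621 on the opposite strand, and the strand setting of the counting is not given in the sources used here.

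Set per kilobase of exon, Ptgs2 took a larger part of cyclooxygenase RNA after dmPGE2, from a start that differed between the dates. Its share of Ptgs1 plus Ptgs2 in young mice was 0.107% to 15.2% with vehicle and 19.3% to 39.8% with dmPGE2. In old mice the share was 2.53% to 30.7% with vehicle and 33.2% to 46.7% with dmPGE2. Over both ages, it went from 0.107% to 2.61% with vehicle to 19.3% to 44.8% with dmPGE2 on date 1. On date 2 it went from 11.7% to 30.7% with vehicle to 23.5% to 46.7% with dmPGE2. The log2 ratio of Ptgs2 to Ptgs1 rose in 8 of 8 mice, by 3.65 ± 2.57 (SD, n = 8), with an exact paired permutation p of 0.0078125, two-sided, the smallest that 8 pairs can give. Old minus young, the log2 ratio differed by 2.26 with vehicle (exact permutation p = 0.314, 4 against 4 mice, two-sided) and by 1.11 with dmPGE2 (exact permutation p = 0.0571). These 2 age tests ignore the date. On date 1 the vehicle ratio was 0.00107 to 0.00380 in young and 0.0259 to 0.0268 in old mice, and on date 2 it was 0.132 to 0.179 in young and 0.165 to 0.443 in old mice. In no library did Ptgs2 exceed Ptgs1 per kilobase, the highest ratio being 0.876.

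**Figure D2:**
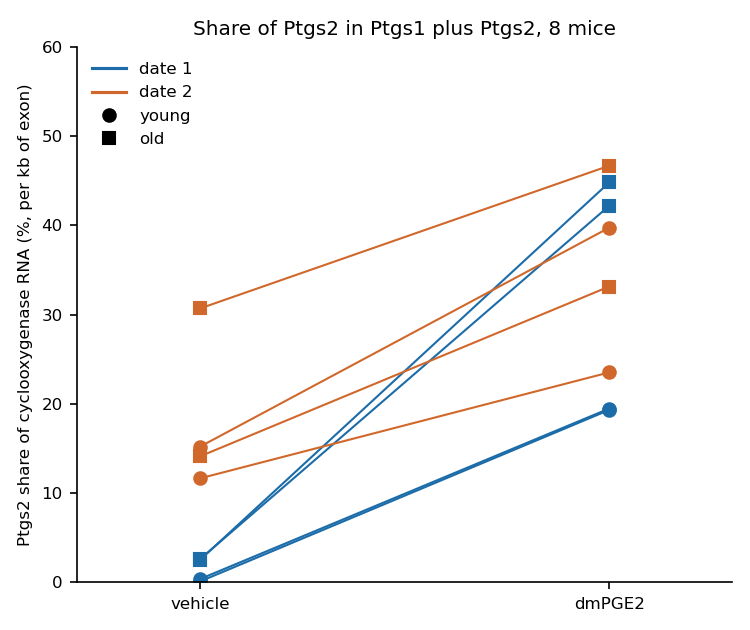
Share of Ptgs2 in the summed Ptgs1 and Ptgs2 level per kilobase of exon (vertical axis, percent) in the vehicle and dmPGE2 libraries of 8 mice, with circles for young, squares for old and colors for the date. Every line goes up, from 0.107% to 30.7% with vehicle to 19.3% to 46.7% with dmPGE2, and the vehicle points of date 1 lie lowest.

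Ptgs2 was higher in old than in young cells after dmPGE2. All 4 old dmPGE2 libraries (142 to 231 CPM) lay above all 4 young ones (69.5 to 113 CPM), a 2.39-fold difference (log2 1.26 ± 0.18, edgeR adjusted p = 0.00129). It was called within date 1 (1.62 ± 0.21, edgeR adjusted p = 0.00353), as were 5.83% of all genes, and within date 2 (0.90 ± 0.21, adjusted p = 0.0329), as were 8.26%. With vehicle the groups overlapped, at 20.2 ± 22.9 CPM in young and 40.9 ± 46.5 CPM in old mice, and the difference adjusted for date, log2 1.74 ± 0.52, had an edgeR adjusted p of 0.0504. That value passed under DESeq2 (0.0164), without robust dispersion (0.0319), without mouse 483 (0.0357) and without mouse 486 (0.00473). Within date 1, old vehicle libraries exceeded young by 3.37 ± 0.59 on the log2 scale (edgeR adjusted p = 0.00997), where 6.47% of all genes were called, and within date 2 by 0.89 ± 0.42 (adjusted p = 0.244), where 7.91% were. The change of this age difference between dates was not called (log2 -2.48 ± 0.73, edgeR adjusted p = 0.652), nor was that of any gene (0%).

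Whether age altered the response to dmPGE2 was tested directly. None of the 10 genes was called for the old minus young difference of the dmPGE2 effect, and 0% of all 13942 genes were called by edgeR, with 955 at an unadjusted p under 0.05. In this fit over all mice none of the 10 had an unadjusted p under 0.05, and neither DESeq2 nor limma-voom called one, although DESeq2 called 17 other genes. For Ptgs2 the difference was -0.03 ± 1.78 on the log2 scale (adjusted p = 0.998). It was -1.76 ± 0.46 within date 1 (adjusted p = 0.716), where the young mice began lowest and 0.0359% of all genes were called, and 0.14 ± 0.31 within date 2 (adjusted p = 0.950). Within each date, 1 of the 10 genes had an unadjusted p under 0.05, beside 732 of all genes on date 1 and 1063 on date 2. The SE of 1.78 over all mice bounds the difference of Ptgs2 only loosely.

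**Figure D3:**
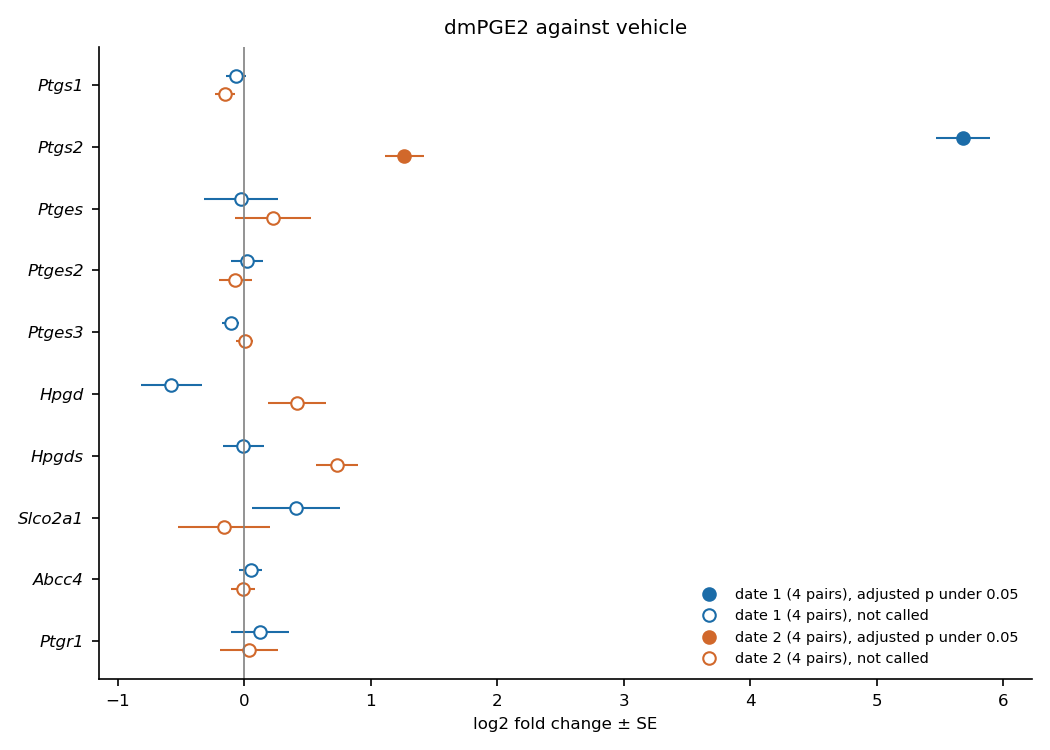
Log2 fold change ± SE of dmPGE2 against vehicle (horizontal axis) for the 10 genes on date 1 and date 2, 4 mouse pairs each, with filled points for an edgeR adjusted p under 0.05. Ptgs2 is the only filled gene, at 5.68 on date 1 and 1.26 on date 2, and the others lie between -0.58 and 0.73.

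For the 3 PGE2 synthases, edgeR called neither a response to dmPGE2 nor an age difference. Ptges (chr2:30889471-30903297, minus strand), the membrane synthase that is inducible in many cells, was scarce and variable, at 2.25 to 14.4 CPM in young vehicle and 9.52 to 22.1 CPM in old vehicle libraries. Its dmPGE2 libraries held 4.80 to 14.0 CPM in young and 8.19 to 17.6 CPM in old mice. The ranges overlapped, 4 of 8 mice were higher after dmPGE2, and the log2 difference over all mice was 0.10 ± 0.20 (edgeR adjusted p = 0.902). On neither date did Ptges follow Ptgs2, with log2 differences of -0.03 ± 0.29 on date 1 and 0.22 ± 0.30 on date 2.

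Ptges2 (chr2:32395890-32402740, plus strand), a second membrane-bound synthase, lay between 29.6 and 45.99 CPM in all 16 libraries, and its log2 difference after dmPGE2 was -0.03 ± 0.09 (edgeR adjusted p = 0.945). Ptges3 (chr10:128058982-128077254, plus strand), the cytosolic synthase also known as the Hsp90 cochaperone p23, lay between 141 and 211 CPM. Its log2 difference after dmPGE2 was -0.05 ± 0.05 (edgeR adjusted p = 0.712). In vehicle libraries Ptges3 was at 183 ± 23.2 CPM in young and 157 ± 17.4 CPM in old mice, a log2 difference of -0.23 ± 0.07 with an edgeR adjusted p of 0.0513. It passed under DESeq2 (0.0402) and without mouse 477 (0.0471), and with dmPGE2 the difference was -0.05 ± 0.07. Ptges3 has 1 annotated pseudogene by name, and reads shared with it could not be separated here.

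Hpgds (chr6:65117293-65144730, minus strand), the hematopoietic synthase that makes PGD2 and that mast cells and megakaryocytes are known to carry, was higher in old cells. Vehicle libraries held 11.6, 10.1, 6.62 and 4.72 CPM in young mice and 20.6, 18.7, 24.3 and 17.6 CPM in old mice. With dmPGE2 the values were 9.37, 10.8, 14.3 and 7.20 CPM in young and 22.7, 19.0, 36.2 and 26.6 CPM in old mice. No old library overlapped a young one in either arm. The difference was 2.55-fold with vehicle (log2 1.35 ± 0.25, edgeR adjusted p = 0.00441) and 2.45-fold with dmPGE2 (log2 1.29 ± 0.23, adjusted p = 0.00452). Within date 2 it was called in both arms (log2 1.87, adjusted p = 0.00623, and 1.56, adjusted p = 0.0207), and within date 1 in neither (0.85, adjusted p = 0.108, and 1.03, adjusted p = 0.107).

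Between the dates, the log2 difference of Hpgds in vehicle libraries was -0.39 ± 0.25 (edgeR adjusted p = 0.365). On date 1 the mast cell and basophil markers summed to 18.2 to 28.9 CPM in young and 13.6 to 24.6 CPM in old libraries, and on date 2 to 1814 to 4438 CPM and 530 to 4048 CPM. The summed megakaryocyte and platelet markers were higher in old libraries, mainly through Vwf and Itgb3, as given above. The part of either cell type in the age difference of Hpgds was not tested. After dmPGE2, Hpgds was higher in 7 of 8 mice, and in 4 of 4 on date 2, with a log2 difference there of 0.73 ± 0.17 that missed the threshold (edgeR adjusted p = 0.142). On date 1 the difference was -0.01 ± 0.16.

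Of the inactivating enzymes, Ptgr1 (chr4:58965590-58987078, minus strand), which reduces 15-keto prostaglandins and also inactivates leukotriene B4, was lower in old cells. Vehicle libraries held 15.9, 16.0, 22.4 and 19.0 CPM in young mice and 6.83, 6.25, 7.38 and 9.03 CPM in old mice, without overlap. It was 2.49-fold lower in old mice (log2 -1.32 ± 0.18, edgeR adjusted p = 0.000729), and was called within date 1 (-1.29, adjusted p = 0.0186) and within date 2 (-1.34, adjusted p = 0.0155). With dmPGE2 it ran from 11.7 to 23.1 CPM in young and from 7.45 to 11.9 CPM in old libraries, where the highest old library, mouse 485, exceeded the lowest young one, mouse 477. There it was 1.93-fold lower (log2 -0.95 ± 0.24, adjusted p = 0.0223). That call was lost without any 1 of mice 478, 479, 480 and 484 (adjusted p 0.0532 to 0.102), without the date term (0.0525), and within date 1 (0.180) and date 2 (0.123) alone.

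Hpgd (chr8:56294552-56321046, plus strand), the dehydrogenase that takes the first step of PGE2 breakdown, varied with both date and age. Vehicle libraries held 12.0, 8.87, 30.8 and 18.0 CPM in young mice and 7.86, 6.08, 9.90 and 13.3 CPM in old mice. With dmPGE2 the values were 7.40, 6.25, 31.7 and 29.5 CPM in young and 7.42, 2.86, 9.41 and 25.7 CPM in old mice. The ages overlapped in both arms, and the highest values came from date 2. Adjusted for date, Hpgd was 1.79-fold lower in old vehicle libraries (log2 -0.84 ± 0.24, edgeR adjusted p = 0.0358). The call was lost without any 1 of mice 477, 480, 483, 485 and 486 (adjusted p 0.0696 to 0.115), without the date term (0.187), and within date 1 (0.359) and date 2 (0.0824) alone. With dmPGE2 the difference was -0.61 ± 0.34 (adjusted p = 0.272).

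The response of Hpgd to dmPGE2 had opposite signs on the dates, without passing the test on either. On date 1 it was lower in 4 of 4 mice (log2 -0.58 ± 0.24, edgeR adjusted p = 0.310) and on date 2 higher in 3 of 4 (0.41 ± 0.23, adjusted p = 0.675). The difference between the dates was 0.99 ± 0.33 with an adjusted p of 0.328.

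Slco2a1 (chr9:103008489-103087849, plus strand), the carrier that brings prostaglandins into cells, showed the largest age difference of the 10 genes in vehicle libraries. It stood at 1.42, 1.36, 1.60 and 1.16 CPM in young mice and at 7.12, 9.48, 8.16 and 6.02 CPM in old mice. The old libraries rested on 94 to 173 counts and the young ones on 15 to 26. No library overlapped, and old mice were 5.49-fold higher (log2 2.46 ± 0.33, edgeR adjusted p = 0.000717), with calls within date 1 (2.57, adjusted p = 0.0135) and within date 2 (2.34, adjusted p = 0.0190). After dmPGE2 the levels were 1.25 to 2.56 CPM in young and 4.00 to 11.4 CPM in old mice, again without overlap, a 3.20-fold difference (log2 1.68 ± 0.36, adjusted p = 0.0109). That call was lost without mouse 480 (adjusted p = 0.0637) and within date 1 (0.0608) and date 2 (0.124) alone. Endothelial cells also express Slco2a1. The 8 endothelial markers, several of which stem cells share, summed to 360 to 513 CPM in young and 515 to 704 CPM in old libraries. Esam, Tek and Pecam1 made up most of the sum. By the means of each date, Esam (174 to 252 CPM in young, 245 to 328 in old), Kdr (8.95 to 13.2 and 33.9 to 52.3) and Cldn5 (1.48 to 3.05 and 34.4 to 42.1) were higher in old mice. Emcn was not (20.7 to 39.1 and 22.0 to 29.1). Over all libraries Cdh5 ran from 0 to 2.64 CPM and Plvap from 0.307 to 4.87 CPM. The part of endothelial cells in the difference was not tested.

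Abcc4 (chr14:118482692-118706219, minus strand), the pump that exports PGE2 and cyclic nucleotides, lay between 59.4 and 80.6 CPM in all 16 libraries. Its log2 difference was 0.02 ± 0.07 for dmPGE2 against vehicle (edgeR adjusted p = 0.952). Old against young, it was 0.10 ± 0.10 with vehicle (adjusted p = 0.517) and 0.03 ± 0.09 with dmPGE2 (adjusted p = 0.862).

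Between ages, then, 4 of the 10 genes were called in vehicle libraries, Slco2a1 and Hpgds higher and Ptgr1 and Hpgd lower in old mice, against 17.3% of all genes (8.47% higher and 8.86% lower). Their median log2 difference was 0.02, beside -0.00 over all genes tested. In dmPGE2 libraries 4 were called, Ptgs2, Hpgds and Slco2a1 higher and Ptgr1 lower, against 14.3% of all genes (7.85% higher and 6.41% lower), with medians of 0.09 and -0.01. The 2 arms hold cells of the same 8 mice and are not independent of each other.

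**Figure D4:**
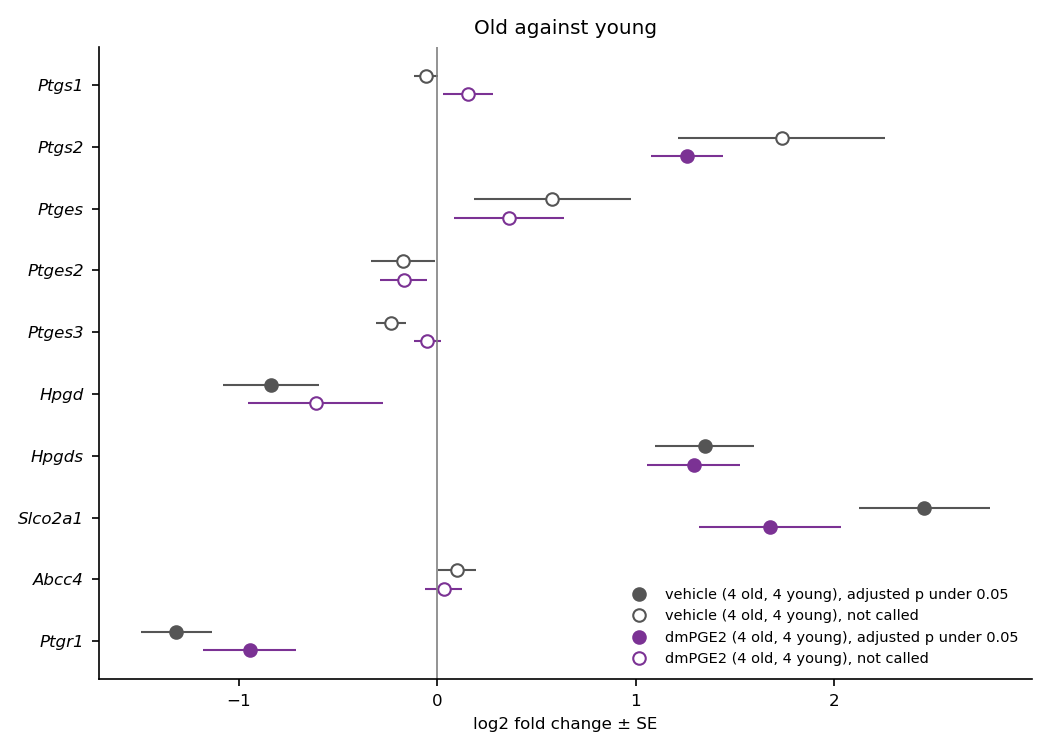
Log2 fold change ± SE of old against young mice (horizontal axis) for the 10 genes in vehicle and in dmPGE2 libraries, 4 against 4 mice each, with filled points for an edgeR adjusted p under 0.05. Slco2a1 (2.46 and 1.68) and Hpgds (1.35 and 1.29) lie to the right and Ptgr1 (-1.32 and -0.95) to the left in both arms.

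The genes around this pathway were listed by role, and the receptors come first. Of 13 prostanoid receptors and related lipid receptors, 11 were in the table. After dmPGE2, 1 of 11 was called by edgeR over all mice, beside 0.61% of all genes. This was Gpr132, a receptor for oxidized fatty acids, which rose 1.41-fold (log2 0.50 ± 0.08, edgeR adjusted p = 0.0240), in 8 of 8 mice. Its call was lost without the mouse block (0.0723) and without any 1 of mice 477, 478, 479 and 480 (0.0966 to 0.132). On date 1 Gpr132 was called (log2 0.63 ± 0.11, edgeR adjusted p = 0.00693), beside 2.93% of all genes, and lost in the same settings (0.0507 to 0.0866). On date 2 it was not called. The 4 PGE2 receptors were not called: the log2 difference was -0.16 ± 0.08 for Ptger4, -0.00 ± 0.05 for Ptger3, 0.07 ± 0.09 for Ptger1 and -1.55 ± 1.05 for Ptger2 (edgeR adjusted p = 0.600). Ptger2 was near the limit of detection, at 0 to 2.55 CPM over the 16 libraries.

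Old cells had more RNA of the PGE2 receptors Ptger4 and Ptger3. In vehicle libraries Ptger4 was at 85.8 ± 10.5 CPM in young and 204 ± 38.2 CPM in old mice (n = 4 each), 2.36-fold higher (edgeR adjusted p = 0.000301). Ptger3 was 1.65-fold higher (67.5 ± 7.10 and 112 ± 16.1 CPM, adjusted p = 0.000990), and the thromboxane receptor Tbxa2r 1.87-fold higher (29.9 ± 12.1 and 53.7 ± 8.82 CPM, adjusted p = 0.00184, and 0.0904 without the date term). These were 3 of 10 receptors tested, where 8.47% of all genes were higher. With dmPGE2, Ptger4 (1.99-fold), Ptger3 (1.65-fold) and Tbxa2r (2.07-fold) were 3 of 9, where 7.85% of all genes were higher. Tbxa2r with dmPGE2 lost its call within date 1 alone (edgeR adjusted p = 0.0822). Ptger4 and Ptger3 were called in both arms under every alternative setting, left-out mouse and single date that was run. Platelets also carry Tbxa2r, and the summed platelet markers were higher in old libraries, mainly through Vwf and Itgb3, as given above. The part of platelets in the difference of Tbxa2r was not tested.

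Of the other organic anion and drug carriers, 5 of 8 tested were called higher and 0 lower in old vehicle libraries, beside 8.47% and 8.86% of all genes. They were led by Abcb1a, the multidrug pump (2.49-fold, 11.1 ± 1.97 and 27.6 ± 6.80 CPM, edgeR adjusted p = 0.000617), and the organic anion carrier Slco4a1 (1.83-fold, adjusted p = 0.000732). Slco3a1, a carrier that transports PGE2, was 1.47-fold higher (adjusted p = 0.00997) and Abcc5, a nucleotide pump, 1.44-fold (adjusted p = 0.0116). Slco3a1 lost this call within date 2 alone (0.171), and Abcc5 within date 1 (0.0642) and date 2 (0.153) alone. With dmPGE2, Abcb1a (2.51-fold), Slco4a1 (2.04-fold) and Slco3a1 (1.35-fold) were the 3 called of 9, beside 14.3% of all genes. The first 2 kept their call throughout the settings run, while Slco3a1 with dmPGE2 lost its call without any 1 of mice 477, 478, 479, 480 and 483 (adjusted p 0.0611 to 0.106). That call was also lost without the date term (0.0613) and within date 2 alone (0.365). After dmPGE2, 0 of 11 carriers were called by edgeR over all mice, beside 0.61% of all genes. Of these carriers, 3 had an unadjusted p under 0.05, DESeq2 called 1 and limma-voom 0.

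Upstream of the cyclooxygenases, 5 of 17 phospholipases and arachidonate genes were higher and 1 lower in old vehicle libraries, beside 8.47% and 8.86% of all genes. Pla2g4a, the cytosolic phospholipase A2 that releases arachidonic acid, was 1.37-fold higher (126 ± 18.5 and 172 ± 16.8 CPM, edgeR adjusted p = 0.00455, and 0.107 within date 1 alone). The fatty acid desaturases Fads2 (1.56-fold, adjusted p = 0.00135) and Fads1 (1.36-fold, adjusted p = 0.0137) were higher as well. Faah, which hydrolyses anandamide, was 1.95-fold lower (edgeR adjusted p = 0.0195). It was called within date 1 (log2 -1.51, edgeR adjusted p = 0.00950) and not within date 2. DESeq2 and limma-voom called it, and the other settings were not recorded for it with vehicle. Pla2g2d, a secreted phospholipase, stood at 0 to 0.382 CPM in young and 0.777 to 11.2 CPM in old vehicle libraries (edgeR adjusted p = 0.0126). That call was lost without mouse 486 (0.0530), with limma-voom (0.0758), and within date 1 (0.154) and date 2 (0.0619) alone. The young vehicle libraries lay at or near a count of 0, so Pla2g2d passed the low-count filter only through the old ones. The 5 higher genes include it, and its call is not separate from that filter. With dmPGE2, 5 of 17 were higher and 2 lower, beside 7.85% and 6.41% of all genes. Fads2 (1.61-fold), Fads1 (1.27-fold), Pla2g4a (1.33-fold, edgeR adjusted p = 0.0176) and Pla2g2d were again higher. Faah was again lower, 2.21-fold (27.8 ± 3.67 and 12.8 ± 3.25 CPM, adjusted p = 0.00149). Fads1 with dmPGE2 lost its call without mouse 477 (adjusted p = 0.0501) or mouse 480 (0.0541), and without the date term Fads1 was called in neither arm (0.129 with vehicle and 0.184 with dmPGE2). Within date 1 alone it was called in neither arm (0.308 and 0.195), and within date 2 alone not with dmPGE2 (0.0660). With dmPGE2, Pla2g2d lost its call within date 1 alone (0.0817), and Pla2g4a was not called there. For dmPGE2 over all mice, 0 of 17 were called by edgeR, beside 0.61% of all genes. Of the 17, 2 had an unadjusted p under 0.05, and DESeq2 and limma-voom called 0.

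Other prostanoid synthases and reductases were called least. Of 11 tested, 0 were called by edgeR between ages with vehicle, beside 17.3% of all genes (2 at an unadjusted p under 0.05, and 0 by DESeq2 and limma-voom). With dmPGE2 only Cbr3, a carbonyl reductase, was higher in old mice (2.03-fold, edgeR adjusted p = 0.0474), and that call was lost without any 1 of 7 mice (all but 479, adjusted p 0.0665 to 0.144) and with limma-voom (0.0657). For dmPGE2 against vehicle over all mice 0 of 11 were called by edgeR, beside 0.61% of all genes. Of the 11, 1 had an unadjusted p under 0.05, and DESeq2 and limma-voom called 0.

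The leukotriene branch draws on the same arachidonic acid. In vehicle libraries 6 of its 15 genes tested were higher and 1 lower on date 2, beside 11% of all genes called in either direction. Alox5, the 5-lipoxygenase, ran from 1.04 to 2.30 CPM on date 1 and from 31.8 to 92.7 CPM on date 2, and Alox15, the 12/15-lipoxygenase of eosinophils, from 1.04 to 2.94 and from 134 to 348 CPM. The leukotriene B4 receptor Ltb4r1 (log2 6.34 ± 0.38, edgeR adjusted p = 1.60e-06) and Cyp4f18, which degrades leukotriene B4 in neutrophils (7.57 ± 0.41, adjusted p = 8.13e-07), differed as widely. These genes moved with the mature cell markers of the same libraries, and the part of those cells was not tested. The same held for Hsd11b1 among the synthases and reductases (log2 7.15 ± 0.77) and for Pla2g7 (2.54 ± 0.33) and Mgll (1.91 ± 0.32) among the phospholipases, all higher on date 2.

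Smaller date differences were called for 4 genes of the other lists. Elovl5 was higher (log2 0.35 ± 0.10), and Abhd6 (-0.51 ± 0.13), Tbxas1, the thromboxane synthase (-0.38 ± 0.09), and Tbxa2r (-0.70 ± 0.14) were lower on date 2. None of these held throughout. Without the age term, the edgeR adjusted p was 0.240 for Elovl5, 0.132 for Abhd6, 0.0751 for Tbxas1 and 0.405 for Tbxa2r. Elovl5 was also lost without any 1 mouse other than 483 (0.0604 to 0.122), Abhd6 without any 1 of mice 477, 478, 480, 483, 485 and 486 (0.0577 to 0.124), and Tbxas1 without mouse 477 (0.0591).

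Between ages, 2 of 15 genes of the leukotriene branch were called with vehicle and 4 of 17 with dmPGE2, beside 17.3% and 14.3% of all genes. Cysltr2, a receptor for cysteinyl leukotrienes, stood at 9.25 ± 2.53 CPM in young and 38.5 ± 14.5 CPM in old vehicle libraries, 4.05-fold higher (edgeR adjusted p = 3.19e-05), and 3.18-fold higher with dmPGE2 (adjusted p = 8.37e-05). Lta4h, which makes leukotriene B4, was 1.24-fold lower with vehicle (adjusted p = 0.0217) and 1.22-fold lower with dmPGE2 (0.0225). With vehicle its call was lost without any 1 of mice 478, 479, 480, 483 and 485 (adjusted p 0.0543 to 0.0746), and with dmPGE2 without any 1 of mice 477, 478, 480 and 484 (0.0509 to 0.0940). Within date 1 and date 2 alone Lta4h was called in neither arm (0.120 to 0.188). With dmPGE2, Alox12, the platelet-type lipoxygenase, was 2.52-fold higher (adjusted p = 0.00566) and Cyp4f18 1.85-fold lower (0.0302, lost without any 1 of mice 477, 478, 483, 485 and 486, adjusted p 0.0565 to 0.193). Within date 1 and date 2 alone, neither was called (0.0553 and 0.0687 for Alox12, 0.901 and 0.0558 for Cyp4f18). Without the date term Lta4h (0.320 with vehicle and 0.458 with dmPGE2), Alox12 (0.158) and Cyp4f18 (0.870) were not called. The summed neutrophil markers were lower in old libraries of date 2, as given above, and their part in the difference of Cyp4f18 was not tested.

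The genes whose levels ran most like Ptgs2 were found by Pearson correlation of log2 CPM over the 16 libraries, among 10692 genes of sufficient level. They were Id3 (r = 0.992), an inhibitor of DNA binding, Ppp1r15a (0.992), the stress phosphatase subunit, Socs3 (0.992), a cytokine signaling inhibitor, Btg2 (0.989), an antiproliferative early gene, Nfkbid (0.989), an NF-kB modulator, and Junb (0.984), an AP-1 subunit. The 16 libraries share mice, dates and treatment, so these values describe a common pattern and carry no test. Btg2 averaged 234 CPM with vehicle and 2775 CPM with dmPGE2 on date 1, and 1299 and 2199 CPM on date 2. Id3 averaged 1.32 and 41.9 CPM on date 1 and 17.5 and 33.3 CPM on date 2. Like Ptgs2, all 6 had their lowest mean in the vehicle libraries of date 1.

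**Figure D5:**
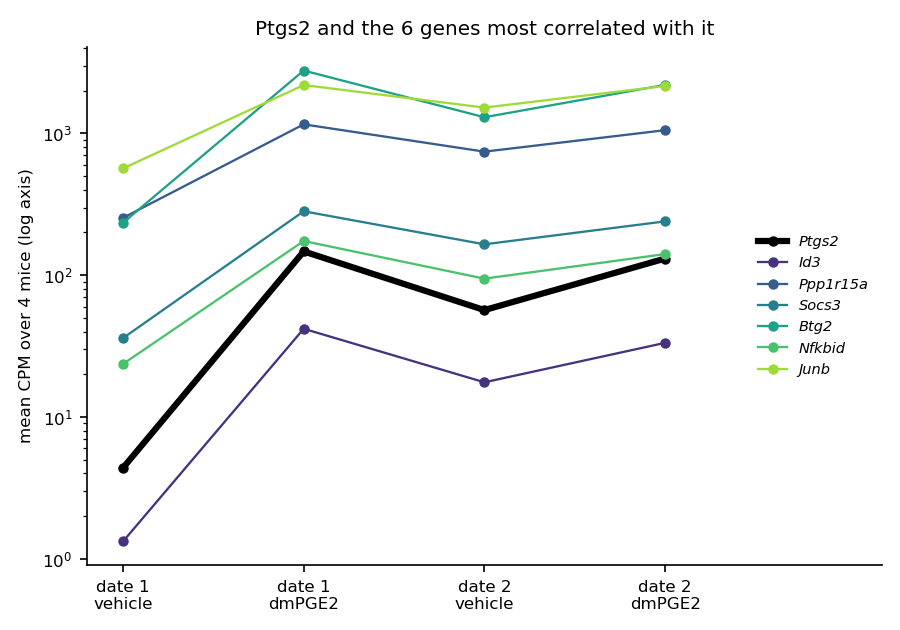
Mean CPM over 4 mice (vertical log axis) of Ptgs2 (thick black line) and the 6 genes most correlated with it, in vehicle and dmPGE2 libraries of date 1 and date 2. Each line has its lowest point with vehicle on date 1, for Ptgs2 4.37 CPM against 147, 56.7 and 131 CPM in the other sets.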

How the data were processed

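The data are gene counts of 16 libraries of sorted mouse stem cells. The authors deposited raw read counts per gene, not normalized, for 14829 genes (2504 further lines are blank). Build mm10, Subread 1.5.1, featureCounts and STAR 2.5.2b appear in the submitters' processing notes. Every gene exceeded 0.5 CPM in at least 2 libraries.

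Columns were matched to samples by name, with 0 unmatched, and grouped by the labels. A count of 0, read as up to 3 counts, allows 0.156 to 0.231 CPM, for counting error only.

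Counts were tested with edgeR 4.0.16 in R 4.3.3 (quasi-likelihood, robust, TMM, filterByExpr) with calls at 0.05 after Benjamini-Hochberg adjustment. The dmPGE2 comparisons used all 16 libraries with mouse as a block, since both libraries of a mouse come from the same marrow per the series' design. Libraries of a mouse correlated at 0.375 to 0.626 after removal of group means, and at 0.0141 to 0.181 after removal of group and date means. Age comparisons used 8 libraries with a date term. SE is the absolute log2 fold change over the root of F. Alternatives were DESeq2 1.42.0, limma 3.58.1 (voom), RLE scaling, no filter, no block or date term, and each mouse left out, with fits within a date added after seeing the data. Scripts were tested on simulated data.

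All 10 genes are named. From each list, up to 4 called genes per comparison with the smallest p are named, and for Ptgs2 the 6 best correlated genes of mean log2 CPM of at least 2. Faah with vehicle and Pla2g4a with dmPGE2 are named besides. The members, the lists and the dmPGE2 terms for each date were chosen with earlier results of these data known. Promoter sequences are from RefSeq (GRCm38.p6).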

Additional observations from a re-analysis of the deposited data

Results flagged for a closer look

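Of 40 groups of 4 libraries looked at, 2 held a library far from the other 3, where chance gives about 1 in 20. Ptgs2 in mouse 483, young with dmPGE2, stood at 113 CPM beside 69.5 to 73.7 CPM in the other 3. Abcc4 in mouse 484, young with dmPGE2, stood at 60.1 CPM beside 72.7 to 74.5 CPM.

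The dmPGE2 effect on Ptgs2 differed between the dates by a log2 value of -4.41 (date 2 minus date 1, edgeR adjusted p = 1.68e-06). The vehicle libraries of the 2 dates started 17.5-fold apart.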

How the results depend on the processing

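Of 480 values of the 10 genes under other settings, 463 kept direction and side of the threshold, as did 559 of 640 on leaving out a mouse and 42 of 60 within a date. The number of the 10 genes called moved by over 1.5 times for dmPGE2 over all mice (1 with DESeq2 in place of 0), for dmPGE2 on date 2 (0 without the replicate block in place of 1), for date in vehicle libraries (1 without the age term in place of 4, and 1 to 3 on leaving out a mouse), and for age with dmPGE2 (1 within date 1, 2 within date 2 and 2 to 4 on leaving out a mouse, in place of 4). For age with vehicle it was 6 with DESeq2, 5 without robust dispersion, and 3 without the date term and within each date, in place of 4. The replicate block changed no other call of the 10 genes. Signs reversed for uncalled values near 0. Hpgd over all mice was 0.15 with limma-voom and 0.20 without the replicate block. For the old minus young difference, Ptgs2 was 0.46 with limma-voom, 0.24 without the block and 0.14 within date 2, Hpgds 0.066, 0.030 and, within date 1, 0.18, and within date 1 Ptgs1 was -0.0025, Ptges2 0.080 and Abcc4 0.12. Within 1 date, age gave 0.030 for Ptges2 (vehicle, date 2), -0.020 for Abcc4 (vehicle, date 1), -0.054 for Ptgs1 (dmPGE2, date 1) and -0.022 for Abcc4 (dmPGE2, date 2). The cause was not tested. On leaving out a mouse, log2 values that changed sign spanned these ranges. For dmPGE2 over all mice the ranges were Ptges -0.013 to 0.26, Ptges2 -0.063 to 0.029, Hpgd -0.24 to 0.088, Abcc4 -0.023 to 0.057. For the old minus young difference the ranges were Ptgs2 -0.99 to 0.76, Ptges2 -0.091 to 0.10, Hpgd -0.28 to 0.38, Hpgds -0.26 to 0.22, Abcc4 -0.13 to 0.0094. For dmPGE2 on date 1 the ranges were Ptges -0.43 to 0.37, Ptges2 -0.041 to 0.078, Hpgds -0.11 to 0.092, Abcc4 -0.0011 to 0.093, Ptgr1 -0.056 to 0.30. For dmPGE2 on date 2 the ranges were Ptges -0.064 to 0.58, Ptges2 -0.21 to 0.056, Ptges3 -0.041 to 0.043, Slco2a1 -0.48 to 0.16, Abcc4 -0.10 to 0.076, Ptgr1 -0.21 to 0.28. For the date difference the ranges were Ptgs1 -0.18 to 0.0092, Ptges -0.14 to 0.65, Ptges2 -0.23 to 0.039, Abcc4 -0.15 to 0.030, Ptgr1 -0.33 to 0.15. For date in vehicle libraries the ranges were Slco2a1 -0.24 to 0.0024. For age with dmPGE2 the ranges were Ptges3 -0.074 to 0.011, Abcc4 -0.013 to 0.10.

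Counts over all genes moved by over 1.5 times as follows. For dmPGE2 over all mice, 85 genes became 443 (DESeq2), 225 (limma-voom), 144 (not robust), 39 (no block) and 0 to 166 without a mouse, with 0, 2, 1 and 5 without mice 477, 478, 479 and 480. On date 1, 408 became 236 to 246 without mouse 478, 479 or 480. On date 2, 54 became 133 (DESeq2) and 10 (no block). For the date difference, 151 became 246 (DESeq2) and 100 without mouse 480. For the old minus young difference, 0 became 17 (DESeq2), 2 without mouse 486 and 5 within date 1. For age with vehicle, 2318 became 971 (no date term), 1448 without mouse 480, and 865 and 1057 within the dates. For age with dmPGE2, 1894 became 804 (no date term), 1104, 1162 and 1221 without mouse 478, 480 or 484, and 774 and 1097 within the dates. For date, 1472 became 559 (no age term) and 902 without mouse 477. Of 41 calls named from the lists by the smallest p, 20 held under every setting run, 21 were lost under at least 1, and 0 reversed. Depth limited Ptgs2 in vehicle libraries of young mice on date 1 and Slco2a1 in young mice.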
